A study of Mus musculus with 576 samples.

Results

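Laminins, nidogens and perlecan form, together with type IV collagen, the core of the basement membrane, and 10 genes of this set were followed through single cells of the mouse dorsal pancreas at E12.5: the laminin alpha chains Lama1, Lama2, Lama4 and Lama5, the beta chains Lamb1 and Lamb2, the gamma chain Lamc1, the nidogens Nid1 and Nid2, and Hspg2, which encodes perlecan. They were taken by symbol and not by level. All 10 are among the 36658 genes that each of the 3 count tables lists. A laminin is a trimer of an alpha, a beta and a gamma chain and is named by the numbers of its chains, so that laminin-111 is made of Lama1, Lamb1 and Lamc1 and laminin-511 of Lama5, Lamb1 and Lamc1. The alpha chain carries the globular domains to which integrins and dystroglycan bind, nidogens bridge laminin and type IV collagen, and perlecan is a heparan sulfate proteoglycan that binds growth factors. In a developing gland the basement membrane lies between epithelium and mesenchyme, and the laminin alpha chain differs between tissues and stages.

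GFP+ cells had been sorted from the dorsal pancreas of E12.5 embryos of 3 lines on the C57BL/6J background, with embryos of both sexes used together. In Nkx2.5-Cre;mTmG and Nkx3.2-Cre;mTmG embryos, Cre is expressed from a targeted allele of the driver gene and switches the R26 mTmG reporter from tdTomato to GFP, so that GFP marks cells that once expressed Nkx2.5 or Nkx3.2, and the descendants of those cells. Prox1-GFP embryos carry a BAC transgene in which regulatory sequences of Prox1 drive EGFP. Each line filled 2 plates of 96 wells, 1 cell a well (plates 6A and 6B for the Nkx2.5 line, 7A and 7B for the Nkx3.2 line, 8A and 8B for the Prox1 line). Only GFP+ cells were kept by the sort, so cells outside these lineages were not sampled, and no line is an untreated control. No animal, embryo or litter is named for any cell. Each line was therefore 1 sample, cells were not replicates, and differences are given by their size and by whether they held on both plates, with no p-value. Each line was on plates of its own, so in all 3 lines a difference between lines cannot be told apart from one between plates. Library numbers of the Prox1 line also form a series of their own, and for it the line cannot be told apart from that batch either.

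After the filters 549 cells remained, with a median of 901156 counts. They were clustered without the 10 genes, and 548 were placed in classes by fixed markers: in the Prox1 line 19 endocrine-like, 88 other epithelial-like and 77 mesenchymal-like cells, in the Nkx3.2 line 22 mesothelial-like cells (3 on plate 7A and 19 on 7B) and mesenchymal-like cells (92 and 77), and in the Nkx2.5 line 5 mesothelial-like cells (3 on plate 6A and 2 on 6B) and mesenchymal-like cells (87 and 81). These names were rebuilt from the counts and need not match those of the study cell by cell. A class given to each cell from its own marker counts was the same for 543 of the 548 cells. Defining markers followed the classes: Epcam stood at 842 CPM (counts scaled to a library of 1e6) in other epithelial-like cells and at 3.12 CPM in mesenchymal-like cells of the same line, Pdgfra at 167.8 CPM or more in each of the 3 mesenchymal-like groups, and Upk3b at 539 CPM in mesothelial-like cells of the Nkx3.2 line. The Prox1 gene itself stood at 977, 1555 and 188.6 CPM in the endocrine-like, other epithelial-like and mesenchymal-like cells of the Prox1 line and at most at 0.773 CPM in the other lines. The 8 mesenchymal markers summed to 7.31 CPM in other epithelial-like cells and to 719 CPM in mesenchymal-like cells of the same line, with Twist1 and Nkx3-2 at 0 in the former. Nkx2-5 stood at 7.50 to 12.3 CPM and Nkx3-2 at 21.9 to 25.6 CPM in the 3 mesenchymal-like groups and both at 0 in the other classes. Endothelial markers summed to 68.7 to 82.2 CPM in the mesenchymal-like groups with Cdh5 at 0, and mural markers, led by Rgs5, to 717 to 811 CPM. No doublet caller was run. For levels, counts were summed over a group and given in CPM, with exact 95% Poisson intervals, and shares are of cells with at least 1 count, with exact 95% binomial intervals. Both kinds of interval cover counting error only, since PCR copies are counted.

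On GRCm38 the alpha chain genes lie at chr17:67697259-67822647 (Lama1, plus strand), chr10:26980036-27619758 (Lama2, minus), chr10:38965515-39110188 (Lama4, plus) and chr2:180176373-180225859 (Lama5, minus). Lamb1 lies at chr12:31265234-31329644, Lamb2 at chr9:108479736-108490530, both on the plus strand, and Lamc1 at chr1:153218922-153332786 on the minus strand. Nid1 (chr13:13437551-13512269), Nid2 (chr14:19751265-19811787) and Hspg2 (chr4:137468769-137570630) are on the plus strand. The count of a gene sums its annotated transcripts, so exons and untranslated regions are not told apart. RefSeq promoters on GRCm38.p6 were matched for 6 of the 10 genes, Lama2, Lama5, Lamb1, Lamb2, Nid1 and Hspg2. Lama5 and Nid1 divided epithelial-like from mesenchymal-like cells of the Prox1 line most sharply, in opposite directions, and the 250 bases before their RefSeq starts are shown for that reason, read 5′ to 3′ on the strand of the gene, with each GGGCGG (the GC box, searched on both strands, so also as CCGCCC) in capitals.
Lama5, chr2:180225860-180226109: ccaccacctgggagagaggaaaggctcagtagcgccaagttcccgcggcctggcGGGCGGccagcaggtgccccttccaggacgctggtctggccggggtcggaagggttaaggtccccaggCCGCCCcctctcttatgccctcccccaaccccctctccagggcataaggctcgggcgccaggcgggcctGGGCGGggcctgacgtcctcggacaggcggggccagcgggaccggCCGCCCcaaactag
Nid1, chr13:13437352-13437601: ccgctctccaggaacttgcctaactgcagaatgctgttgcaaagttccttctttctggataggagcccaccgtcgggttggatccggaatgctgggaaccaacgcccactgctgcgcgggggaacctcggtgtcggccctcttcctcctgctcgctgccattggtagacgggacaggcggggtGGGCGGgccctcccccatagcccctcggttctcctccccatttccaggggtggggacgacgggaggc
The Lama5 window holds 19 CpG dinucleotides and 4 GC boxes. The Nid1 window holds 16 CpG and 1 GC box, and its last bases lie within the gene as given above, since the RefSeq start of Nid1 lies inside it. Over the 32851 promoters of the table, 32.7% hold a GC box in this window and the median number of CpG is 6. These counts describe the letters only and say nothing on factors bound there.

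The alpha chain divided the classes. Lama5, the alpha chain of laminin-511 and laminin-521, was held by 79 of 88 other epithelial-like cells (89.8%, interval 81.5 to 95.2), at 103.6 CPM (101.3 to 105.9), with 105.99 CPM on plate 8A and 100.8 CPM on plate 8B. In single cells of this class it ranged from 0 to 656 CPM. It was held by 0 of 77 mesenchymal-like cells of the same 2 plates, which allows a share of up to 3.90% of cells with a count. With each cell thinned to 100000 counts, these shares were 87.5% and 0%. Lama5 was highest in mesothelial-like cells, with 220.3 CPM (214 to 227) in the Nkx3.2 line, where 22 of 22 cells held it, and 249 and 214 CPM on plates 7A (3 cells) and 7B (19 cells). The 5 mesothelial-like cells of the Nkx2.5 line held 0, 109.3, 188.4, 216 and 252 CPM each. Of all 414 mesenchymal-like cells, 7 held any Lama5 count (1.69%), 4 from plates 7A and 7B and 3 from plates 6A and 6B, at 0.842 to 423 CPM a cell, and 1 of the 7 was classed as epithelial by its own markers. Most mesothelial-like and other epithelial-like cells thus held Lama5, and mesenchymal-like cells were nearly all without it. Endocrine-like cells lay between, at 41.8 CPM, with a count in 10 of 19 cells (52.6%, interval 28.9 to 75.6). These were 3 of 9 cells on plate 8A and 7 of 10 on plate 8B, and the share was 36.8% in thinned cells.

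Lama1, the alpha chain of laminin-111, an early laminin of the embryo, followed another division. The 3 mesenchymal-like groups stood at 71.2 CPM in the Prox1 line (86.3 and 60.9 on its plates), 83.7 CPM in the Nkx3.2 line (73.1 and 99.97) and 93.5 CPM in the Nkx2.5 line (81.5 and 106.4). Their plate values overlapped, so no order among the 3 lines is drawn. Other epithelial-like cells held 24.5 CPM (20.7 on plate 8A and 28.8 on plate 8B), all below the lowest mesenchymal-like plate, and endocrine-like cells held 20.6 CPM (20.4 and 20.8). In the endocrine-like class 1 of the 19 cells held 42.2% of the Lama1 counts, and the level was 12.8 CPM without it. No Lama1 count was found in any of the 27 mesothelial-like cells of both Cre lines, which allows a share of up to 11.1%. Lama1 and Lama5 were held together by 22 of 88 other epithelial-like cells (25%) and by 1 of 414 mesenchymal-like cells. The 24 other epithelial-like cells with Lama1 held 8.24 CPM of summed mesenchymal markers and no Nid1 count, against 6.96 CPM and 0.0553 CPM in the 64 cells without it.

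Lama2 and Lama4, the alpha chains best known from muscle and from vessel walls, were low throughout. Lama4 stood at 6.27 CPM in mesenchymal-like cells of the Nkx3.2 line and at 10.8 CPM in those of the Nkx2.5 line, held by 8.88% and 7.14% of cells. In the Prox1 line its mesenchymal-like level of 7.82 CPM came almost wholly from plate 8A (19.1 CPM, against 0.142 CPM on plate 8B). Lama2 reached 11.6 CPM in mesothelial-like cells of the Nkx3.2 line, where 3 of 22 cells held it and 1 cell held 72% of the counts, and 3.44 CPM without that cell. In the mesenchymal-like groups it stood at 6.36, 3.58 and 0.700 CPM (Prox1, Nkx3.2 and Nkx2.5 line). Endocrine-like cells held 1 count of Lama2 in all and none of Lama4.

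**Figure D1:**
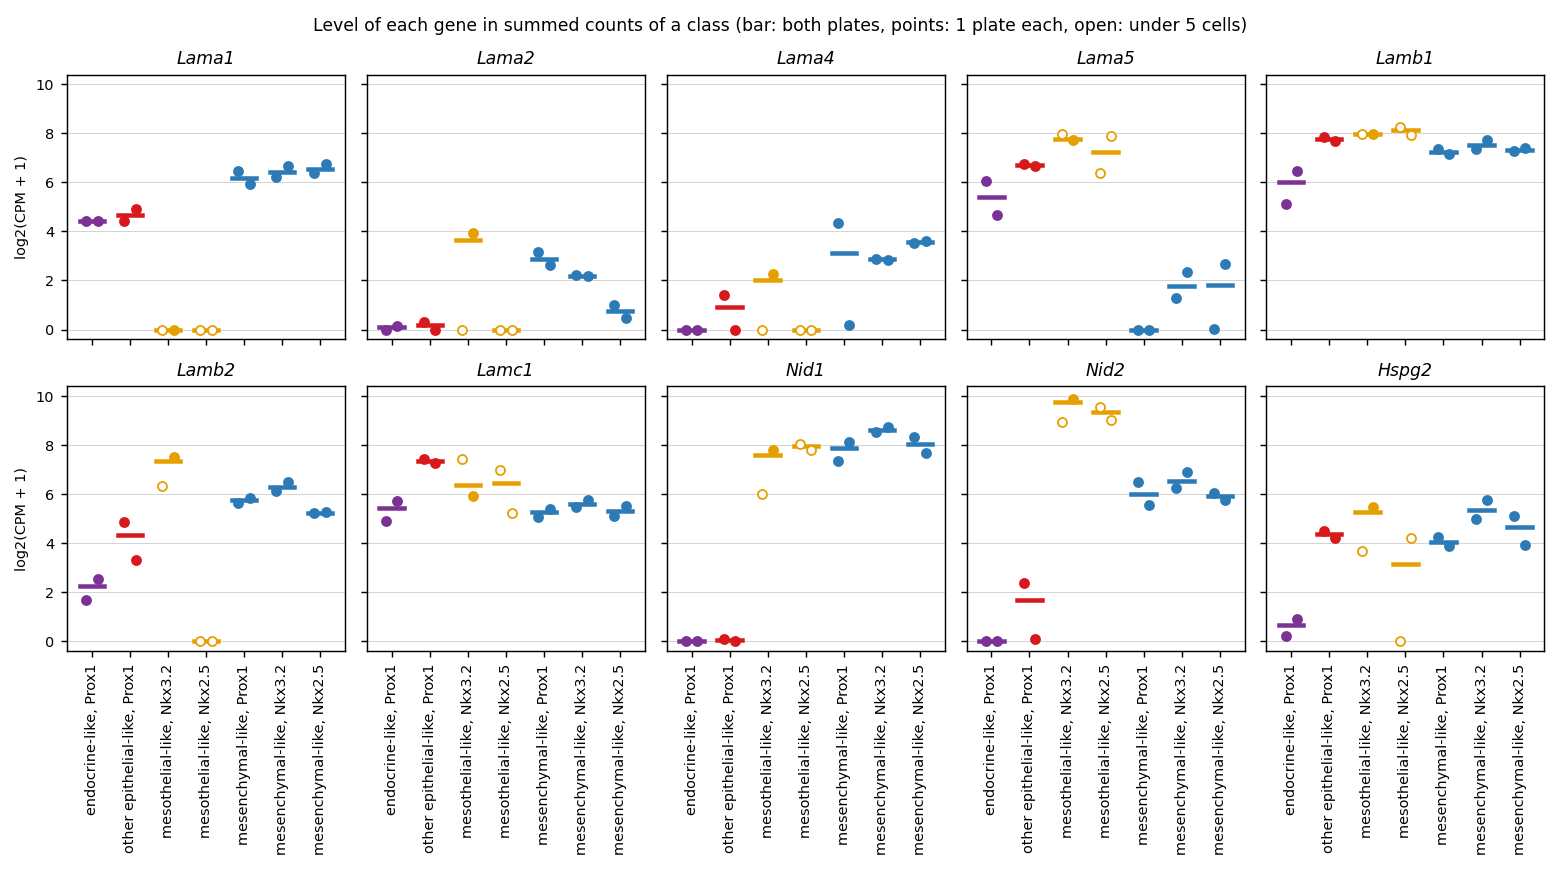
Level of each of the 10 genes, as log2(CPM + 1) of the summed counts of a class, for the 7 groups of class and line; the bar is the value over both plates, each point is 1 plate, and open points are plates with under 5 cells of the class. Lama5 is at 0 in mesenchymal-like cells of the Prox1 line and at 220.3 CPM in mesothelial-like cells of the Nkx3.2 line, Lama1 is at 0 in both mesothelial-like groups, and Nid1 is at 0 or 0.0403 CPM in the endocrine-like and other epithelial-like groups.

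Lamb1, the beta chain common to laminin-111, laminin-411 and laminin-511, was present in every class. It stood at 215 CPM in other epithelial-like cells (227 and 203 on plates 8A and 8B), at 252 and 277 CPM in the mesothelial-like groups of the Nkx3.2 and Nkx2.5 lines, and at 151.01, 181.7 and 160.6 CPM in mesenchymal-like cells of the Prox1, Nkx3.2 and Nkx2.5 lines. Endocrine-like cells were lowest, at 64.3 CPM, with 33.9 CPM on plate 8A and 86.9 CPM on plate 8B. A count was found in 10 of the 10 endocrine-like cells of plate 8B and in 3 of the 9 cells of plate 8A. The 3 mesenchymal-like groups lay within the range of their plates, 141.1 to 209 CPM, and overlapped.

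Lamb2, the beta chain that replaces Lamb1 in synaptic and kidney laminins, had a different order. Mesothelial-like cells of the Nkx3.2 line stood highest at 161.02 CPM, with 80 CPM in the 3 cells of plate 7A and 179.99 CPM in the 19 cells of plate 7B, while the 5 mesothelial-like cells of the Nkx2.5 line held no count. Among mesenchymal-like cells the Nkx3.2 line (77.9 CPM, plates 69.5 and 90.6) stood above the Prox1 line (53.7 CPM, plates 49.5 and 56.6) and the Prox1 line above the Nkx2.5 line (37.2 CPM, plates 36.2 and 38.3), with no overlap of plates between the lines. Cluster 1 kept this order, while in cluster 0 the Prox1 line stood at 72.8 CPM and the Nkx3.2 line at 68.1 CPM. In clusters 2 and 5 the Prox1 line held no Lamb2 count, in 8 and 11 cells, against 48.1 and 20.4 CPM in the Nkx2.5 line. The lines differ in their make-up of clusters, and the part of this in the order was not tested. Other epithelial-like cells held 19.3 CPM, uneven between plates (28.3 on 8A and 8.99 on 8B), and endocrine-like cells 3.74 CPM.

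Lamc1 is the gamma chain of all 8 trimers that these chains can form. It was highest in other epithelial-like cells, at 163.1 CPM (173.1 and 151.8 on plates 8A and 8B), and was held by 89.8% of them. The mesenchymal-like groups stood at 37.6, 47.8 and 38.8 CPM (Prox1, Nkx3.2 and Nkx2.5 line), with plates at 32.6 and 40.9, 44.1 and 53.3, and 33.4 and 44.6 CPM. Both Nkx3.2 plates lay above both Prox1 plates, and the Nkx2.5 plates overlapped those of each other line. Mesothelial-like cells of the Nkx3.2 line held 81.1 CPM, with 174.02 CPM in the 3 cells of plate 7A and 59.4 CPM on plate 7B, and endocrine-like cells held 42.5 CPM (29 and 52.6). In the 5 mesothelial-like cells of the Nkx2.5 line 1 cell held 81.1% of the Lamc1 counts, and 86.6 CPM fell to 21.1 CPM without it.

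The nidogens came almost only from mesenchymal-like and mesothelial-like cells. Nid1, the more widespread of the 2 nidogens, stood at 233 CPM in mesenchymal-like cells of the Prox1 line (160.6 and 281 on plates 8A and 8B), at 394 CPM in the Nkx3.2 line (372 and 429.8) and at 265 CPM in the Nkx2.5 line (323 and 203). The Nkx3.2 plates both lay above the plates of the other lines, and the plates of the Prox1 and Nkx2.5 lines overlapped. In cluster 0 the Nkx3.2 line stood lower (273 CPM, against 309 CPM in the Nkx2.5 line), as in cluster 8 (104.2 CPM, against 148.8 CPM in the Prox1 line). In the other mesenchymal-like clusters the Nkx3.2 line stood highest among lines with at least 5 cells. Mesothelial-like cells held 194.2 CPM in the Nkx3.2 line, uneven between plates (63.9 in 3 cells and 225 in 19 cells), and 246 CPM in the Nkx2.5 line, where 1 of the 5 cells held 56.4% of the counts. In the Prox1 line, 88 other epithelial-like cells held 3 Nid1 counts in all, in 2 cells, and 19 endocrine-like cells held none.

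Nid2, which is rarer than Nid1 in most basement membranes, was highest in mesothelial-like cells. It stood at 859.7 CPM (846 to 873) in the Nkx3.2 line and at 649 CPM (627 to 672) in the Nkx2.5 line, and all 27 cells held it. The 5 cells of the Nkx2.5 line held 277, 489, 531, 563 and 1286 CPM each, and the 22 cells of the Nkx3.2 line reached 1653 CPM. Mesenchymal-like cells stood at 63.9, 92.2 and 59.4 CPM (Prox1, Nkx3.2 and Nkx2.5 line), held by 37.7%, 54.4% and 31.5% of cells. Other epithelial-like cells held 2.23 CPM in 4 of 88 cells, 1 of which held 47.9% of the counts, and these 4 cells held 33.1 CPM of summed mesenchymal markers against 6.09 CPM in the other 84. Nid2 overlaps Rtraf, a gene on the opposite strand, with which it shares 407 of its 5172 sequences of 31 bases (7.87%), and 88.3% of its values above 0 were not whole numbers. Rtraf stood at 117.1 to 248 CPM in the 7 groups, with 117.1 CPM in endocrine-like cells where Nid2 was at 0, and low Nid2 values in single cells are uncertain for this reason.

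**Figure D2:**
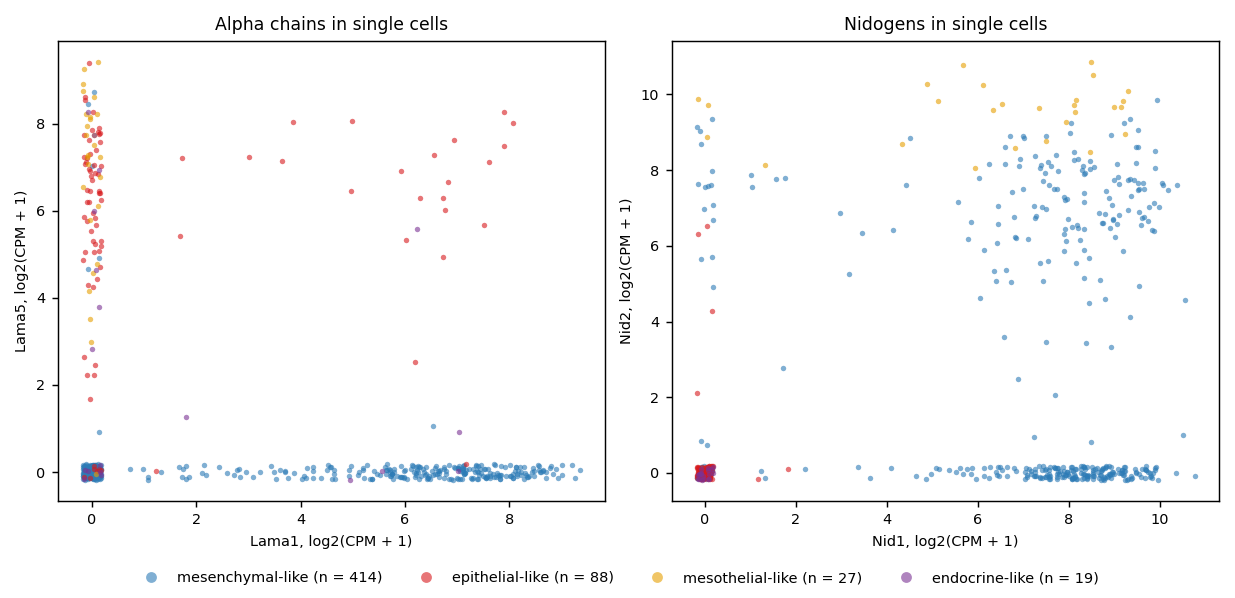
Lama5 against Lama1 (left) and Nid2 against Nid1 (right) in each of 548 cells, as log2(CPM + 1) of the cell, coloured by class, with a small random shift so that points at 0 can be seen. Mesenchymal-like cells lie along the Lama1 axis and mesothelial-like cells along the Lama5 axis; on the right 27 of 27 mesothelial-like cells lie above 0 for Nid2, and epithelial-like and endocrine-like cells gather at the origin.

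Hspg2, which encodes perlecan, was low in CPM in all classes although its transcript is the longest of the set. It stood at 15.6, 40.1 and 24.1 CPM in mesenchymal-like cells of the Prox1, Nkx3.2 and Nkx2.5 lines, with plates of the Nkx2.5 line at 33.4 and 14.2 CPM. Other epithelial-like cells held 19.8 CPM (21.6 and 17.8), spread over 77.3% of cells. Endocrine-like cells held 9 counts in all, in 2 of 19 cells (0.571 CPM). In mesothelial-like cells of the Nkx3.2 line 1 cell held 57.1% of the counts, and the level of 37.4 CPM was 17.2 CPM without it.

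Compared per kilobase of the longest coding transcript, the leading gene differed by class. Lamb1 led in endocrine-like cells (11.1 CPM per kb) and in other epithelial-like cells (37.2 CPM per kb), followed in both by Lamc1 (5.58 and 21.4) and Lama5 (3.67 and 9.09). Nid1 led in mesenchymal-like cells of the Prox1, Nkx3.2 and Nkx2.5 lines (38.2, 64.8 and 43.5 CPM per kb), with Lamb1 next (26.1, 31.4 and 27.8) and Nid2 after it (13.1, 18.9 and 12.2). Nid2 led in mesothelial-like cells of the Nkx3.2 and Nkx2.5 lines (176.3 and 133.1 CPM per kb), with Lamb1 next (43.6 and 47.9). Lamb1 per kilobase exceeded each alpha chain in every one of the 7 groups, and in mesenchymal-like cells Lama1 (7.47, 8.79 and 9.82) exceeded Lamc1 (4.93, 6.26 and 5.09), whereas in other epithelial-like cells Lamc1 exceeded Lama5. Which transcript stands for the gene alters these places, as the median length of coding transcripts kept only 1 of 10 genes at its place in mesenchymal-like cells of the Prox1 line.

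Chain combinations within single cells followed the alpha chains. All 3 chains of laminin-511 were held by 66 of 88 other epithelial-like cells (75%, interval 64.6 to 83.6), and 28 of the 88 (31.8%) held those of laminin-521, in which Lamb2 takes the place of Lamb1. Thinned to 100000 counts a cell, these shares were 70.5% and 27.3%. In mesothelial-like cells of the Nkx3.2 line both laminin-511 and laminin-521 were held by 12 of 22 cells (54.5%, 32.2 to 75.6), and by 40.9% and 36.4% of thinned cells. Laminin-511 was held by 5 of 19 endocrine-like cells (26.3%, 9.15 to 51.2), all of them on plate 8B, and by 10.5% of thinned cells. In mesenchymal-like cells laminin-511 was held by 0, 2 and 0 cells of the Prox1, Nkx3.2 and Nkx2.5 lines. The combination most often complete in these cells was laminin-111, held by 15 of 77 cells in the Prox1 line (19.5%, 11.3 to 30.1), 66 cells in the Nkx3.2 line (39.1%, 31.7 to 46.8) and 20 cells in the Nkx2.5 line (11.9%, 7.43 to 17.8). Thinned to 100000 counts a cell, these shares were 15.6%, 30.8% and 9.52%. The median number of genes detected in a cell followed the same order (6324, 7215 and 5745.5 in the Prox1, Nkx3.2 and Nkx2.5 line), and its part in these shares was not tested. Laminin-121, with Lama1, Lamb2 and Lamc1, was held by 9 of 77 mesenchymal-like cells in the Prox1 line (11.7%, 5.49 to 21), 49 cells in the Nkx3.2 line (29%, 22.3 to 36.5) and 10 cells in the Nkx2.5 line (5.95%, 2.89 to 10.7). Laminin-111 was also held by 22 of 88 other epithelial-like cells (25%), and laminin-121 by 10 of them (11.4%). Laminin-411 was held by at most 6.51% of cells of any group, in the Nkx3.2 mesenchymal-like cells, and laminin-211 by at most 9.09%, in the Nkx3.2 mesothelial-like cells.

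**Figure D3:**
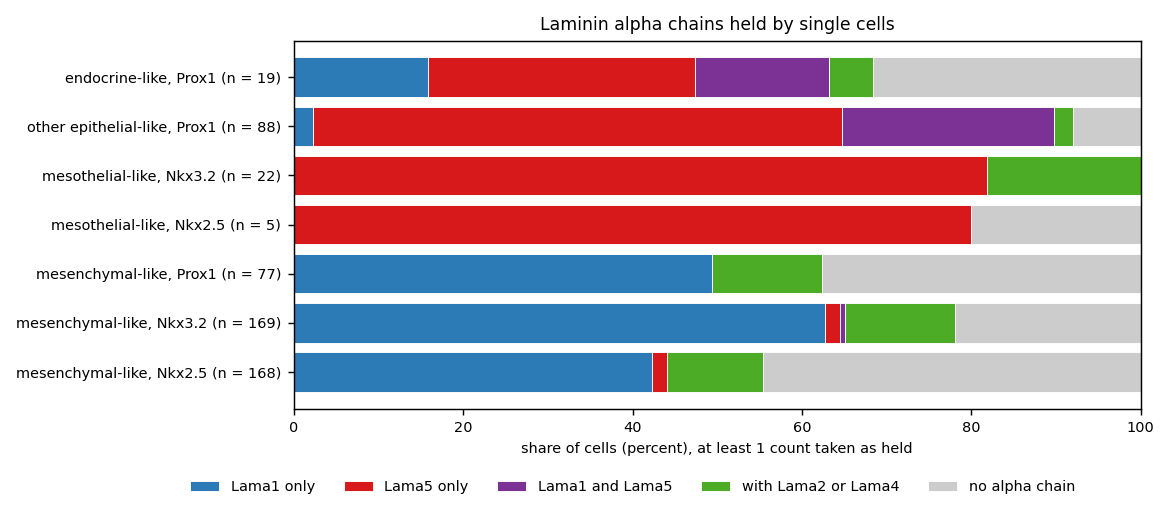
Share of cells (percent) of each of the 7 groups by the laminin alpha chains held, with at least 1 count taken as held. Other epithelial-like cells are split into 62.5% with Lama5 only and 25% with Lama1 and Lama5, 81.8% of mesothelial-like cells of the Nkx3.2 line hold Lama5 only, and mesenchymal-like cells hold Lama1 only (49.4%, 62.7% and 42.3% in the Prox1, Nkx3.2 and Nkx2.5 lines) or no alpha chain (37.7%, 21.9% and 44.6%).

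**Figure D4:**
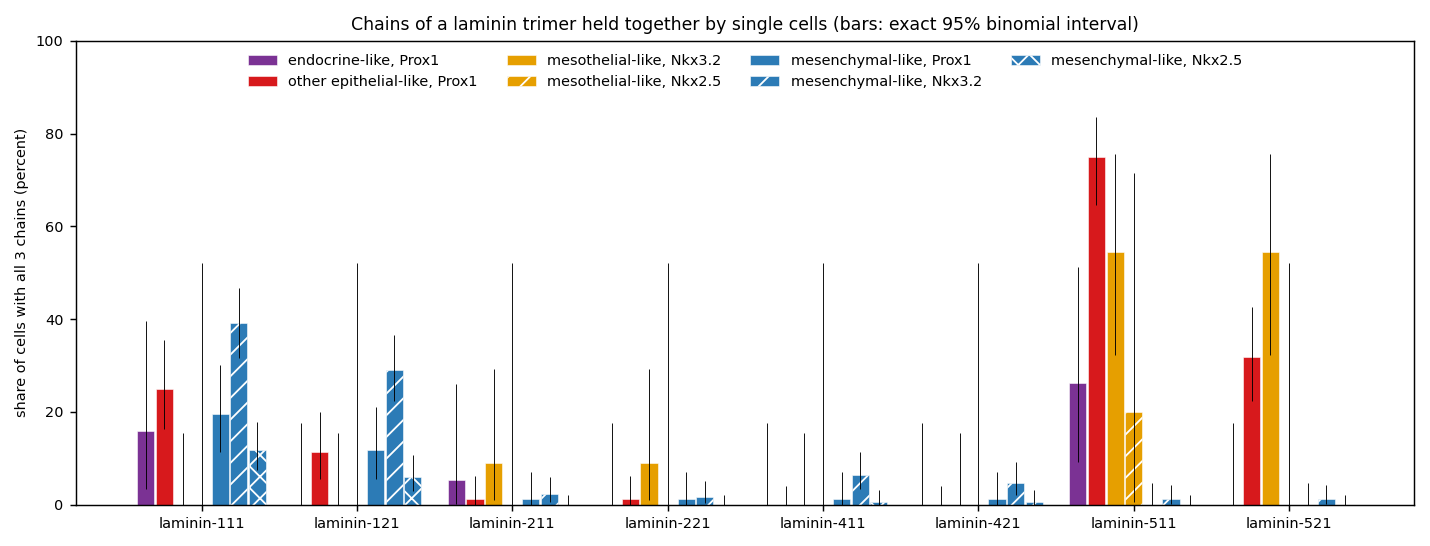
Share of cells (percent) that hold all 3 chains of each of 8 laminin trimers, by group; bars are colored by class and hatched by line, and lines are exact 95% binomial intervals. Laminin-511 is highest in other epithelial-like cells (75%), laminin-521 in mesothelial-like cells of the Nkx3.2 line (54.5%) and laminin-111 in mesenchymal-like cells of the Nkx3.2 line (39.1%).

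Many cells held part of a trimer only. An alpha chain without Lamc1 was held by 37.7%, 32.5% and 39.3% of mesenchymal-like cells of the Prox1, Nkx3.2 and Nkx2.5 lines, by 10.2% of other epithelial-like cells and by 40.9% of mesothelial-like cells of the Nkx3.2 line. A beta chain with Lamc1 and no alpha chain was held by 21.1% of endocrine-like cells and 6.82% of other epithelial-like cells, and by none of the 22 mesothelial-like cells of the Nkx3.2 line, which allows a share of up to 13.6%. Both nidogens were held by 51.5% of mesenchymal-like cells of the Nkx3.2 line, 33.8% of those of the Prox1 line and 26.2% of those of the Nkx2.5 line. Nid1 without Nid2 was held by 40.8%, 48.1% and 55.4% of them, and Nid2 without Nid1 by 2.96%, 3.90% and 5.36%. Neither nidogen was held by 82 of 88 other epithelial-like and by 19 of 19 endocrine-like cells. A count in a cell is RNA and says nothing on secreted protein, and a count of 0 does not show that the cell lacks the RNA.

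The comparison of epithelial with mesenchymal cells could be made within the Prox1 line, on the same 2 plates. A gene was called here when the summed levels differed at least 2-fold in the same direction on both plates, among genes with a mean of at least 5 CPM. Endocrine-like and other epithelial-like cells together held 2 of the 9 tested members higher than mesenchymal-like cells, where 12.4% of 11663 genes passed in that direction. Lama5 was at 92.8 CPM against no count in the 77 cells, and Lamc1 was 3.78-fold higher (3.62 to 3.96). Against a floor of 3 counts over the 77 cells Lama5 was 1824-fold higher, which covers counting error only. A share of up to 3.90% of these cells may hold it, so no lower bound on the fold is drawn. Another 5 members were lower, where 9.56% of all genes passed. Nid1, with 3 counts against 13717, was lower by a ratio of 6990.3 (interval 2391 to 33900.4), and Nid2 was 34.7-fold lower (29.7 to 40.8). Lama4 was 10.8-fold lower, but on plate 8B this rested on 0.142 CPM in mesenchymal-like cells against 0. Lamb2 was 3.24-fold lower (3.05 to 3.45) and Lama1 2.99-fold lower (2.84 to 3.15). Lamb1 (188.9 and 151.01 CPM) and Hspg2 (16.5 and 15.6 CPM) passed in neither direction, and Lama2 was not tested as it lay under the limit of 5 CPM. The median difference of the 9 members was -1.54 on the log2(CPM + 1) scale, where that of all genes tested was 0.014. The Lamb2 call was lost with 30 principal components, with TMM scaling, without S and G2/M cells and with the immune-marked cell kept, and the Lama1 call without S and G2/M cells.

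Endocrine-like cells were compared with other epithelial-like cells of the same plates. The latter class is not free of endocrine markers, as Neurog3 stood at 130.6 CPM in it and leads cluster 9, 21 of its 88 cells. Cluster 9 held Lamb1 at 383, Lama5 at 154.4 and Lamc1 at 208 CPM, and the other 67 cells (cluster 3) held 169.4, 89.7 and 150.8 CPM. The comparison is therefore not one of the whole endocrine lineage with the rest. None of the 6 tested members was higher, where 12.7% of 11631 genes passed, and 3 were lower, where 16.2% passed. Hspg2 was 34.7-fold lower (18.2 to 76.1), Lamc1 3.84-fold lower (3.55 to 4.15) and Lamb1 3.35-fold lower (3.14 to 3.57). Lama5 was at 41.8 CPM against 103.6 CPM and Lama1 at 20.6 CPM against 24.5 CPM, and neither passed. Lamb2 was at 3.74 CPM against 19.3 CPM, 5.15-fold lower (3.97 to 6.80) over both plates but less than 2-fold lower on plate 8B (4.87 and 8.99 CPM), so that it was not called. Single endocrine-like cells with Lama5 held from 0.959 to 285 CPM, and 1 cell held 38.4% of the counts, without which the class stood at 27.2 CPM. Without plate 8A, Lama5 was called lower as well. Lama1 and Lama5 of the 2 classes thus differed less than 2-fold on at least 1 plate, while Lamb1 and Lamc1 were lower in endocrine-like cells on both. The median difference of the 6 members was -1.82, where that of all genes was -0.11. Endocrine-like cells were 89.5% in G1 by score and other epithelial-like cells 42%, and the part of this in the differences was not tested. In other epithelial-like cells scored as G1, S and G2/M, Lamb1 stood at 302, 169.3 and 150.8 CPM and Lama5 at 154.5, 71.5 and 68.9 CPM.

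Mesenchymal-like cells were compared between lines with the call required in all 4 pairs of plates. Between the Nkx2.5 and the Nkx3.2 line none of 8 tested members was higher, where 1.32% of 10988 genes passed, and none was lower, where 1.98% passed. The closest was Lamb2, at 37.2 CPM against 77.9 CPM, a ratio of 2.09 (2.03 to 2.16) over both plates that fell under 2 for plate 7A. Nid1 (265 and 394 CPM), Nid2 (59.4 and 92.2 CPM) and Hspg2 (24.1 and 40.1 CPM) were lower by ratios of 1.49, 1.55 and 1.66, and Lama4 (10.8 and 6.27 CPM) was higher by 1.73. Lama1 differed by a ratio of 1.12 (1.09 to 1.14), with 2-fold outside the counting interval. Between the Prox1 and the Nkx3.2 line none of 9 tested members was higher, where 1.18% of 11027 genes passed, and none was lower, where 1.74% passed. Hspg2 was at 15.6 CPM against 40.1 CPM, lower by a ratio of 2.58 (2.40 to 2.76), and was under 2-fold for 1 or more pairs of plates, since plate 7A stood at 31.1 CPM and plate 8A at 18.3 CPM. The median differences of the members were -0.43 and -0.34, and those of all genes 0.016 and 0.0185. Both comparisons share the Nkx3.2 cells.

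Mesothelial-like cells were compared with mesenchymal-like cells over both plates summed, a choice made after seeing that plate 7A held only 3 of them, so a gene here is past 2-fold with no check between plates. In the Nkx3.2 line 4 of 9 tested members were higher, where 12.4% of 11258 genes passed. Lama5 was 89.4-fold higher (80.4 to 99.7), Nid2 9.33-fold (9.12 to 9.54), Lama2 3.25-fold, with 1 cell carrying most of it, and Lamb2 2.07-fold (1.99 to 2.15). Another 2 were lower, where 12.2% passed: Lama1, with no count in the 22 cells, and Nid1, 2.03-fold lower (1.96 to 2.10). Against a floor of 3 counts over the 22 cells Lama1 was 513-fold lower, which covers counting error only. A share of up to 13.6% of these cells may hold it, so no lower bound on the fold is drawn. Lamb1 (252 and 181.7 CPM), Lamc1 (81.1 and 47.8 CPM) and Hspg2 (37.4 and 40.1 CPM) did not pass. Lama4 (3.10 and 6.27 CPM) lay under the limit of 5 CPM and was not tested, and with a limit of 1 CPM it was past 2-fold and lower. The median difference of the members was 0.75, where that of all genes was 0.0102. Without plate 7A neither Lamb2 nor Nid1 passed, and Lamb2 did not with TMM scaling. The 5 mesothelial-like cells of the Nkx2.5 line are given as values only: against mesenchymal-like cells of that line Lama5 stood at 150.8 and 2.56 CPM, Nid2 at 649 and 59.4 CPM, Lama1 at 0 and 93.5 CPM, and Lamb2 at 0 and 37.2 CPM. The 10 epithelial markers summed to 324 CPM in mesothelial-like cells of the Nkx3.2 line, with Krt18 highest and 4 of the 10 at 0, and to 59.9 CPM in its mesenchymal-like cells, and the part of this in the Lama5 difference was not tested.

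Clusters within a class differed in level. In the epithelial-like cells of the Prox1 line, cluster 9 (21 cells, led by Neurog3 and Spp1) stood above cluster 3 (67 cells, with Cpa1 among its leading genes) for Lamb1 (383 and 169.4 CPM), Lama5 (154.4 and 89.7 CPM) and Lamc1 (208 and 150.8 CPM). On both plates Lamb1 and Lama5 were higher in cluster 9, with Lama5 at 130.1 and 98.1 CPM on plate 8A and at 192.1 and 80.8 CPM on plate 8B. Lama1 was at 45.2 and 18.8 CPM and went in opposite directions on the plates (10.5 and 24 CPM on 8A, 99.1 and 13.4 CPM on 8B). Among mesenchymal-like cells, cluster 6 (40 cells, 33 of the Nkx3.2, 5 of the Prox1 and 2 of the Nkx2.5 line, led by Acta2 and Tagln, genes of contractile cells) held 154.1 CPM of Nid2, 235 CPM of Lamb1 and 69.1 CPM of Lamc1 over all lines summed, the highest of the 7 mesenchymal-like clusters. The lines did not all show this order, as Nid2 in Prox1 cells was 60.2 CPM in the 5 cells of cluster 6 and 80.4 CPM in cluster 1, and Lamc1 in Nkx3.2 cells was 66.6 CPM in cluster 6 and 67.4 CPM in the 7 cells of cluster 8. Cluster 4 (62 cells) held the highest Nid1 over all lines summed (457 CPM). Cluster 8 (23 cells, 16 of the Prox1 and 7 of the Nkx3.2 line, led by Zmat4 and Gabrb1 and with Igf1 among its leading genes) held the highest Lama2 (30.3 CPM, 6 cells) and Lamb2 (143.2 CPM, 15 cells), and the lowest Nid1 (135.7 CPM) and Lama1 (42.6 CPM) over all lines summed. Lamb2 stood at 224 CPM in the 7 Nkx3.2 cells and at 109.6 CPM in the 16 Prox1 cells. Lama1 stood at 0 in the 7 Nkx3.2 cells and at 60.4 CPM in the 16 Prox1 cells. The latter lay above Prox1 cells of clusters 2 (58.9 CPM) and 6 (26.7 CPM) and below those of clusters 0, 1 and 5. Lama2 was held by 2 of the 7 Nkx3.2 cells (38.3 CPM), 1 of which held 99.4% of the counts, and by 4 of the 16 Prox1 cells (27 CPM). All Lama5 of cluster 8 (21.9 CPM) came from 2 Nkx3.2 cells. Clusters were made from the same cells, so these levels are a description.

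**Figure D5:**
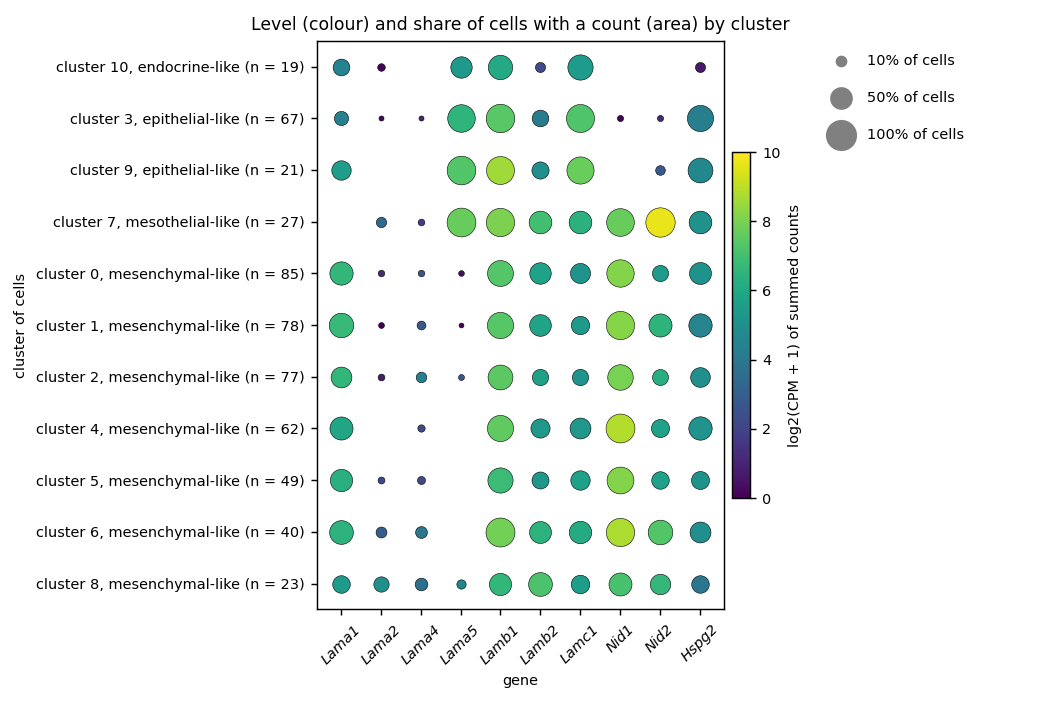
Level (color, log2(CPM + 1) of summed counts) and share of cells with a count (area of the circle) of the 10 genes in the 11 clusters, with no circle where no count was found. Cluster 7, mesothelial-like, combines Lama5 with Nid2 and lacks Lama1, clusters 3, 9 and 10 hold Lama5 without Nid1 or with at most 0.0513 CPM of it, and cluster 8 has the highest Lama2 (30.3 CPM).

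Other genes of the basement membrane were counted from fixed lists. Of the other laminin chains, Lamc3 reached 5.44 CPM in mesothelial-like cells of the Nkx3.2 line. Of the 6 type IV collagen genes, which form the second network of the basement membrane, the highest levels were those of Col4a5 (119.2 CPM) and Col4a6 (114.3 CPM) in the 5 mesothelial-like cells of the Nkx2.5 line, against 56.3 and 4.57 CPM in the 22 of the Nkx3.2 line. In epithelial-like against mesenchymal-like cells 0 of 3 tested were higher and 1 was lower (Col4a2, 20.6 and 57 CPM), and in endocrine-like against other epithelial-like cells 0 of 3 were higher and 1 was lower (Col4a5, 0.825 and 19.3 CPM). In mesothelial-like against mesenchymal-like cells of the Nkx3.2 line 1 of 3 was higher (Col4a5, 56.3 and 9.10 CPM) and 1 lower (Col4a1, 13.4 and 90.4 CPM), and between lines 0 of 3 passed in either comparison. Of all genes tested, 12.4% passed as higher and 9.56% as lower in epithelial-like cells, and 12.7% and 16.2% in endocrine-like cells. In mesothelial-like cells 12.4% and 12.2% passed. Between lines 1.32% and 1.98% passed for the Nkx2.5 line, and 1.18% and 1.74% for the Prox1 line. The genes that passed in these lists are named after their values were seen.

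Among 15 other basement membrane genes the highest were Sparc, a matrix protein that binds collagen, at 1719 CPM in mesothelial-like cells of the Nkx3.2 line and 3.87 CPM in endocrine-like cells, and Smoc2, a calcium-binding matrix protein, at 960.1 CPM in mesenchymal-like cells of the Nkx2.5 line and 0 in endocrine-like cells. In epithelial-like against mesenchymal-like cells 5 of 13 tested were higher (Col18a1, Smoc1, Frem2, Tinagl1 and Egflam) and 6 lower, where 12.4% and 9.56% of all genes passed. In endocrine-like against other epithelial-like cells 1 of 11 was higher (Fbln2, 62.1 and 2.24 CPM) and 7 lower, where 12.7% and 16.2% passed. Between lines 0 of 12 were higher in both comparisons, and 0 (Nkx2.5) and 1 (Prox1, Tinagl1) lower, where 1.98% and 1.74% passed as lower. In mesothelial-like against mesenchymal-like cells of the Nkx3.2 line 7 of 13 were higher, with Col18a1 at 299 and 14.8 CPM, and 3 lower (Smoc2, Frem1 and Egflam). Of all genes 12.4% and 12.2% passed there. Of 7 laminin receptor genes, Itgb1, the beta subunit of the laminin-binding integrins, reached 423 CPM in mesenchymal-like cells of the Prox1 line and stood at 247 to 423 CPM in all 7 groups, and Dag1, which encodes dystroglycan, reached 313 CPM in mesothelial-like cells of the Nkx3.2 line. In epithelial-like against mesenchymal-like cells 3 of 5 tested receptors were higher, in endocrine-like against other epithelial-like cells 1 of 5, in mesothelial-like against mesenchymal-like cells 4 of 6, and none was lower in these, where 12.4%, 12.7% and 12.4% of all genes passed as higher. They were Itga3, Itga6 and Bcam in the first, Bcam in the second, and Itga3, Itgb4, Dag1 and Bcam in the third, where Itga3, the alpha subunit of a receptor for laminin-511, stood at 213 and 0.865 CPM and Bcam, a receptor for Lama5, at 294 and 11.9 CPM. Between lines 0 of 4 were higher in both comparisons, and 1 (Bcam, Nkx2.5) and 0 (Prox1) were lower. Of the genes for the sugar chain by which dystroglycan binds laminin, Pomt2 was highest in endocrine-like cells (95.2 CPM), and in mesothelial-like against mesenchymal-like cells of the Nkx3.2 line it was higher (54.5 and 23.9 CPM). None of the genes of this list passed between epithelial-like and mesenchymal-like cells or between lines.

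For each member with a mean of at least 5 CPM, the most similar genes were found by Pearson's r of log2(CPM + 1) over 11 sums of class, line and plate with at least 5 cells, among 11780 genes. The 11 sums share lines and libraries and are not independent, so r is a description. Nid1 was most similar to Ccn4 (0.998) and Cd248 (0.996), Nid2 to Tmem88 (0.984) and Sulf1 (0.983), Lamb2 to Ifngr2 (0.990) and Ldah (0.976), and Hspg2 to Gpc2 (0.983) and Gys1 (0.973). Lama5 was most similar to Prkcz (0.960) and Ston2 (0.951), Lamc1 to Myo5c (0.956) and Mgll (0.952), Lamb1 to Dus3l (0.988) and Mcm2 (0.975), Lama1 to Fkbp1a (0.954) and Oaf (0.939), and Lama4 to Gm12397 (0.939) and Asb3 (0.935). Among the members themselves, Lama5 and Lamc1 were most similar to each other (0.617), as were Lamb2 and Nid2 (0.947) and Lamb1 and Hspg2 (0.902), and Nid1 was most similar to Nid2 (0.912). Lama1 had no close partner in the set, the nearest being Lama4 (0.328).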

How the data were processed

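GFP+ single cells of the dorsal pancreas were sequenced with Smart-seq2, a plate method without molecular identifiers. Per the study's methods and the labels, the authors trimmed reads with Trim Galore 0.6.5, quantified transcripts with kallisto on GRCm38 and summed them to genes with tximport, and the deposited values are estimated counts per gene, 1 table a line. The annotation release and the use of strand are not given in the sources used here. Names and positions come from GENCODE M21. No depth normalization had been applied. Cells were matched to lines by the deposited column names, and all 576 columns were used.

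A cell was kept if it held 1000 genes and 100000 counts or more, and if 13 mitochondrial genes took 30% of its counts or less (549 of 576; medians of 1056674, 896115 and 808006 counts in the Nkx2.5, Nkx3.2 and Prox1 line). They were clustered with Seurat 5.3.0 (R 4.3.3) on 2000 variable genes less 10, with 20 principal components at resolution 1.9, which gave 11 clusters. The 10 left out were the variable genes among the members, other laminin chains, type IV collagen, other basement membrane genes, laminin receptors and dystroglycan glycosylation genes. Clusters were named from fixed markers. An immune-marked cell (score of 11.0, next highest 2.68) was given no class. No doublet caller was run. Counts were summed by class, line and plate and scaled to CPM with Python 3.11.15, numpy 2.4.6, pandas 2.3.3 and scipy 1.17.1. The counting intervals are exact Poisson and binomial intervals at 95%, a count of 0 allows 3 counts, and cells were thinned to 100000 counts where shares were compared. Called genes had a mean of at least 5 CPM and differed at least 2-fold on both plates, or in all 4 pairs of plates between lines. The median differences quoted are on the log2(CPM + 1) scale and do not depend on genes at 0 in 1 group, which lie at the ends of the order. The call rule was also run on simulated counts, with known changes larger than the 2-fold limit and with Poisson counting error only. Spread between cells and between plates was not simulated, so this run cannot check calls near the limit.

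All 10 members are named. Of each list, the 2 genes with the highest level in any class are named (some genes are not reported here), and of lists with few calls the called genes, which were picked after their values were seen. Likeness names the 2 genes with the highest r. The members, lists and markers were chosen with earlier results of these data known. Alternatives were a stricter filter (2000 genes, 250000 counts, 10% mitochondrial), classes from each cell's markers, 30 components, no S or G2/M cells, each plate left out, mean CPM of cells, TMM factors (edgeR 4.0.16), the top cell left out, thinning, at least 5 counts, a fold of 3, a mean of 1 CPM and median transcript length. Per-plate values stand for the spread, and no fit of a count model was made, since each line is 1 sample.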

Additional observations from a re-analysis of the deposited data

Results flagged for a closer look

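Lamb2 in mesothelial-like cells stood at 161.02 CPM in the Nkx3.2 line, above the 77.9 CPM of mesenchymal-like cells, and at 0 in the Nkx2.5 line, below 37.2 CPM. The latter rests on 5 cells, in which a count of 0 allows a share of up to 60%, and 31% of mesenchymal-like cells of that line held Lamb2. In the Nkx3.2 line the difference was under 2-fold without plate 7A and with TMM scaling. The difference between the lines was not tested. Of the cells outside every class, the 19 cells of the Nkx2.5 line that failed the filter held 31 counts of the 10 genes in 155890, or 198.9 CPM, above the 19.2 CPM that a count of 0 allows, from Nid1 (147.5 CPM) and Lamb2 (51.3 CPM). The immune-marked cell of the Prox1 line held 25 counts in 559774, or 44.7 CPM, all of Lamc1, above the 5.36 CPM that a count of 0 allows.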

How the results depend on the processing

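No paired analysis was possible because the labels give cells and plates but no replicate numbers of animals, and no result comes from a test. Of the counts and shares that answer a comparison, 342 values under alternatives stayed within 1.5 times or within the interval, and 39 moved. Of single levels and shares, 1016 stayed and 314 moved. Some alternatives leave fewer cells, and the cause of the moves was not tested.

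Without S and G2/M cells, the members lower in epithelial-like cells against mesenchymal-like cells of the Prox1 line were 3 in place of 5 (Lama1 and Lamb2 lost), those lower in the Nkx2.5 against the Nkx3.2 line 1 (Lamb2), in the Prox1 against the Nkx3.2 line 1 (Hspg2), and in mesothelial-like against mesenchymal-like cells 1 in place of 2 (Nid1 lost). Of all genes 9.37%, 2.86%, 3.27% and 15.9% passed as lower there, in place of 9.56%, 1.98%, 1.74% and 12.2%. With a fold of 3, the members lower were 3 in epithelial-like cells (Lama1 and Lamb2 lost), 1 in place of 3 in endocrine-like cells (Hspg2 kept) and 1 in mesothelial-like cells (Nid1 lost), where 6.41%, 9.54% and 7.09% of all genes passed. With a mean of 1 CPM, Lama2 was lower in the Nkx2.5 and Lama5 in the Prox1 against the Nkx3.2 line, 1 in each, where 3.37% and 3.39% of all genes passed. Leaving out plates, members lower in the Nkx2.5 against the Nkx3.2 line ranged from 0 to 1 (Hspg2 without plate 6A, Lamb2 without 7A, where 8.26% and 4.54% of all genes passed in place of 1.98%), lower in the Prox1 against the Nkx3.2 line from 0 to 1 (Hspg2 without 7A or 8A, Nid1 without 8B, where 3.74%, 5.78% and 5.77% of all genes passed in place of 1.74%) and higher from 0 to 2 (Lama2 and Lama4 without 8B, 4.35% in place of 1.18%), and lower in mesothelial-like cells was 1 without 7A, with no value without 7B, which left 3 cells. Lama4 was not called lower in epithelial-like cells without 8A. In endocrine-like cells Lama5 was also lower without 8A and Lamb2 without 8B, where 27.1% and 25.9% of all genes passed in place of 16.2%.

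Laminin-111 in mesenchymal-like cells of the Nkx3.2 line was held by 30.8% of thinned cells, and by 30.4% to 49.4% with a plate left out. Laminin-511 ranged from 0% to 50% with a plate left out in endocrine-like cells and in the 5 mesothelial-like cells of the Nkx2.5 line, where it was 0% without S and G2/M cells. Members held by at least 50% of endocrine-like cells numbered 1 to 3 with a plate left out. Members at 10 CPM or more in the mesothelial-like cells of the Nkx2.5 line were 8 in place of 5 with classes from each cell's markers.

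The place of the 10 members by level per kilobase was kept, with the median transcript length, by 6 in other epithelial-like cells, by 1, 4 and 5 in mesenchymal-like cells of the Prox1, Nkx3.2 and Nkx2.5 line, and by 4 in mesothelial-like cells of the Nkx3.2 line. In mesothelial-like cells of the Nkx2.5 line 6 kept it with classes from each cell's markers, 2 without S and G2/M cells and 4 to 10 with a plate left out, and in its mesenchymal-like cells 6 without the top cell and 6 to 8 with a plate left out. With a plate left out it was kept by 4 to 10 in mesothelial-like cells of the Nkx3.2 line, 6 to 10 in other epithelial-like, 5 to 6 in Prox1 mesenchymal-like and 5 to 8 in endocrine-like cells.

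Classes of few cells limit the levels most. Lama5 in the 5 mesothelial-like cells of the Nkx2.5 line was 52.1 CPM without S and G2/M cells, and Nid1 138.3 CPM in place of 246 CPM without its top cell.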

Other observations

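Levels of some members differed between cells scored in different phases of the cell cycle, which is a description of the same cells and was not tested. In mesenchymal-like cells of the Nkx3.2 line, Lamb2 stood at 94.3 CPM in 81 G1 cells, 76.4 CPM in 54 S cells and 40.9 CPM in 34 G2/M cells, while Nid1 stood at 407, 381 and 388 CPM. In other epithelial-like cells of the Prox1 line, Lama1 stood at 36.4, 23.8 and 12.2 CPM in 37 G1, 20 S and 31 G2/M cells, and Lamc1 at 178.8, 158.6 and 149.2 CPM.

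The summed level of the 10 genes also differed by class. It was 173.6 CPM in endocrine-like and 549 CPM in other epithelial-like cells, 639.7, 930.1 and 693 CPM in mesenchymal-like cells of the Prox1, Nkx3.2 and Nkx2.5 line, and 1821 and 1418 CPM in the mesothelial-like cells of the Nkx3.2 and Nkx2.5 line. A median cell held 2 of the 10 genes in the endocrine-like class, 4 in other epithelial-like cells and 6 in the mesothelial-like cells of the Nkx3.2 line. The median numbers of genes detected in these cells were 8014, 7526 and 7823.5.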
